A study of Mus musculus with 8 samples.

Results

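The core circadian clock genes described here are the transcription factor genes Arntl and Clock, the repressor genes Per1, Per2, Per3, Cry1 and Cry2, the nuclear receptor genes Nr1d1 and Nr1d2, and the output gene Dbp. They were taken by symbol, and all 10 were found among the 38926 gene symbols of each of the 8 deposited count files. All 10 passed the filter on low counts that left 16370 genes for testing. The libraries are polyA RNA of mouse bladder tissue. In 4 of them the label is NeMO, a partial obstruction of the bladder outlet made by surgery that spares the nerves, and in 4 it is Sham, the operation without obstruction. The labels give no age, sex, strain, time since surgery or time of day at collection, and they do not state whether every library is a separate mouse, so the p-values are about the spread among these 8 libraries, which may be partly technical.

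Nearly every mammalian cell carries a circadian clock. The proteins of Arntl (BMAL1) and Clock bind E-box elements as a pair and switch on the Per, Cry, Nr1d1, Nr1d2 and Dbp genes. PER and CRY proteins then block that pair, the receptors REV-ERB alpha and beta (from Nr1d1 and Nr1d2) repress Arntl through ROR elements, and DBP acts through D-box elements. In mouse tissues outside the brain the transcripts of Arntl and Npas2 peak roughly opposite in the day to those of Nr1d1 and Dbp, the Per transcripts follow Nr1d1 and Dbp, and Cry1 comes later still, so the ratio of such genes in a sample depends on when it was taken. The bladder of mice and its urothelium are known to hold such a clock.

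Promoters of 9 of the 10 genes were found in the RefSeq promoter table on GRCm38.p6, each 250 bases before to 50 after an annotated start site, and Per2 was not. Of the 6 whose windows hold an element of the loop, 4 are printed here, since each carries the element through which genes compared below are known to act. Capitals mark the match. It is a D-box (TTATGTAA, found at 2 places) in Per3, an E-box (CACGTG) and an E'-box (CACGTT, read as AACGTG on the other strand) in Cry1, an E'-box in Nr1d1 and a ROR element (the monomer site of REV-ERB and ROR receptors, in its A form) in 1 of the 2 Arntl windows.
Arntl promoter, chr7:113207261-113207560, plus strand: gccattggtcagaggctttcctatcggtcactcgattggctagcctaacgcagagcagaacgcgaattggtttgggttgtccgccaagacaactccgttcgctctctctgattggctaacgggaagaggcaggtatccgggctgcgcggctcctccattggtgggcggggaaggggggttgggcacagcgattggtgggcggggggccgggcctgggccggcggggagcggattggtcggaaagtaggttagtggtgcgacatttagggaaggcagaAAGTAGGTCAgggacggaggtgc
Nr1d1 promoter, chr11:98775328-98775627, minus strand: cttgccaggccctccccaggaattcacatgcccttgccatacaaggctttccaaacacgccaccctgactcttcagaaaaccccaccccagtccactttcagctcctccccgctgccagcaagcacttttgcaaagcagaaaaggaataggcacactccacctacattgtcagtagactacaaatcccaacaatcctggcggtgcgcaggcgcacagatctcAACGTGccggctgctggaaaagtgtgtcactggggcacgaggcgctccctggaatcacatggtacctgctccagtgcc
Per3 promoter, chr4:151044616-151044915, minus strand: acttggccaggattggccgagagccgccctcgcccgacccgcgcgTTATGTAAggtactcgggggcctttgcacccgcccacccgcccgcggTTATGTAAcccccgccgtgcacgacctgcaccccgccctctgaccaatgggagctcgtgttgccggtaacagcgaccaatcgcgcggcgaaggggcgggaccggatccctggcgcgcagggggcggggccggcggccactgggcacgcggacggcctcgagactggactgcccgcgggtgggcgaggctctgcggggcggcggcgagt
Cry1 promoter, chr10:85185005-85185304, minus strand: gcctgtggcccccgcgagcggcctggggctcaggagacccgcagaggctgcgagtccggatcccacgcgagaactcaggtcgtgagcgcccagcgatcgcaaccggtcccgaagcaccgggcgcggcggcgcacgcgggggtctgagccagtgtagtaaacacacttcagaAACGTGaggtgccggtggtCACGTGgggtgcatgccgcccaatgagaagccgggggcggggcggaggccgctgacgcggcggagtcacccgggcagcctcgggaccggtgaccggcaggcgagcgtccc

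Both strands were searched, and the motifs do not overlap each other in these windows. The ROR element starts 27 bases after the Arntl start site, and this form stands in 0.219% of the 32851 mouse promoters of the table. The D-boxes of Per3 begin at positions -205 and -158 from its start site, and 0.938% of all promoters hold one. In Cry1 the E-box lies at -60 and the E'-box at -79, and the E'-box of Nr1d1 lies at -28. Per1 holds an E-box at -166 and Cry2 an E'-box at -166. Of all promoters 7.15% hold an E-box and 4.68% an E'-box. The G form of the ROR element (0.216% of promoters) and the cyclic AMP element (TGACGTCA, 1.79%) were not in any window of the 9 genes. A match describes letters and does not show that a factor bound there.

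The 8 libraries held 29451800 to 36375313 counts in NeMO and 27212499 to 33459048 in Sham. A mark in the submitted file names splits them into batch 2 (NeMO replicates 2 and 4, Sham replicate 4) and batch 1 (NeMO replicates 1 and 3, Sham replicates 1 to 3). All 7 smooth muscle markers and all 7 urothelial markers passed the filter, with summed urothelial levels of 4417 to 6582 CPM in NeMO and 5462 to 7298 in Sham. CPM are read counts brought to one library size by TMM scaling. The urothelial markers had a median log2 difference of -0.43 and the 6 adipocyte markers one of -1.19, NeMO minus Sham, and none of either passed the edgeR test (unadjusted p was under 0.05 for 5 and 3 of them, all lower, against 18.5% of all genes tested). In bulk RNA, fewer cells of a type and less RNA per cell cannot be told apart. The part of cell makeup in the clock gene values was not tested.

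Sham replicate 1 stood apart from the other 7 libraries in interferon response genes and in several clock genes, so values without it are given beside the main ones. Over all genes it was the highest or lowest library for 19.6%, fewer than Sham replicate 4 (40.3%) or NeMO replicates 1, 2 and 3 (24% to 33%). A list of 18 interferon response genes, chosen after values were seen, summed to 3231 CPM in this library, against 486.6 to 622.9 CPM in NeMO and 629.4 to 695 CPM in Sham replicates 2 to 4. Each of the 18 was highest there. The 4 tested leukocyte markers (Ptprc, Cd68, Emr1 and Cd3e) summed to 136 CPM in Sham replicate 1 and to 54.4 to 124 CPM in the other 7. Ptprc and Cd68 were highest there, while Emr1 and Cd3e were within the range of the other 7. The part of this in the clock gene values was not tested.

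Of the activators of the loop, Arntl was the scarcest of the 10 transcripts and Clock the one with the smallest spread pooled over both groups. Arntl measured 5.42, 8.88, 8.71 and 5.45 CPM in NeMO replicates 1 to 4, against 21.4, 8.73, 9.04 and 9.80 CPM in Sham replicates 1 to 4. Sham replicate 1 was more than double any other library, NeMO replicates 1 and 4 were the lowest, and the other 5 libraries lay within 8.71 to 9.80 CPM, so the groups overlapped. Arntl averaged 7.11 ± 1.94 CPM in NeMO and 12.2 ± 6.10 CPM in Sham (SD, n = 4 each), a log2 difference of -0.73 (SE 0.36, 95% interval -1.56 to 0.09, edgeR adjusted p = 0.318). Without Sham replicate 1 it was -0.38 (edgeR adjusted p = 0.423). Clock, the partner of Arntl, measured 85.7, 79.0, 75.8 and 68.5 CPM in NeMO, against 74.7, 73.4, 63.6 and 73.1 CPM in Sham. NeMO replicates 1 to 3 lay above every Sham library and NeMO replicate 4 did not. Its log2 difference was 0.13 (SE 0.09, edgeR adjusted p = 0.475), and it was -0.05 when trends with transcript length and GC content were removed from each library. Arntl spans 113207465 to 113314126 on the plus strand of chromosome 7 and Clock 76209868 to 76304792 on the minus strand of chromosome 5 (mm10).

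The nuclear receptor genes, the repressive arm that acts on Arntl, were among the most abundant. Nr1d1 measured 268, 249.5, 210.0 and 292 CPM in NeMO, against 190.4, 262, 189 and 332 CPM in Sham. Sham held both the highest library (replicate 4) and the lowest ones (replicates 1 and 3), so the NeMO values fell inside the Sham range. Nr1d1 averaged 255 ± 34.7 CPM in NeMO and 243 ± 68.0 CPM in Sham, a log2 difference of -0.003 (SE 0.15, 95% interval -0.34 to 0.34, edgeR adjusted p = 0.994). Nr1d2 measured 209.5, 200.1, 191 and 155 CPM in NeMO, against 126, 173, 180.0 and 148 CPM in Sham. NeMO replicates 1 to 3 were above every Sham library and NeMO replicate 4 lay among them. This was the clock gene with the smallest p in the comparison, with a log2 difference of 0.30 (SE 0.13, 95% interval 0.01 to 0.60, unadjusted p = 0.0430, edgeR adjusted p = 0.253). Without Sham replicate 1 it was 0.21, with an interval that crossed 0 (-0.02 to 0.45). Nr1d1 (chromosome 11, 98767932 to 98775333, minus strand) overlaps Thra on the opposite strand, which had 109.8 to 131 CPM in NeMO and 120.2 to 151 CPM in Sham. The strand setting of the counting is not given in the sources used here, so reads of such partners cannot be told apart. Nr1d2 lies on chromosome 14 (18204054 to 18239127, minus strand).

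Dbp, whose protein drives rhythmic output genes through D-boxes, set 1 library apart from all others. It measured 254, 232, 194 and 244 CPM in NeMO, against 85.0, 228.5, 231 and 228 CPM in Sham. Sham replicates 2 to 4 were almost equal and inside the NeMO range, while Sham replicate 1 was below every other library by more than 100 CPM. Its SD of log2 CPM within Sham was 0.71 with all 4 libraries and 0.00996 without replicate 1. Dbp averaged 231 ± 26.3 CPM in NeMO and 193 ± 72.0 CPM in Sham, a log2 difference of 0.22 (SE 0.31, edgeR adjusted p = 0.753), which was 0.01 without Sham replicate 1 (95% interval -0.23 to 0.24). Dbp lies on chromosome 7 (45705088 to 45710203, plus strand) and overlaps Sphk2 on the opposite strand. Sphk2 measured 41.3, 50.1, 38.9 and 47.8 CPM in NeMO, against 50.6, 45.9, 49.1 and 65.6 CPM in Sham, so it was not low where Dbp was.

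**Figure D1:**
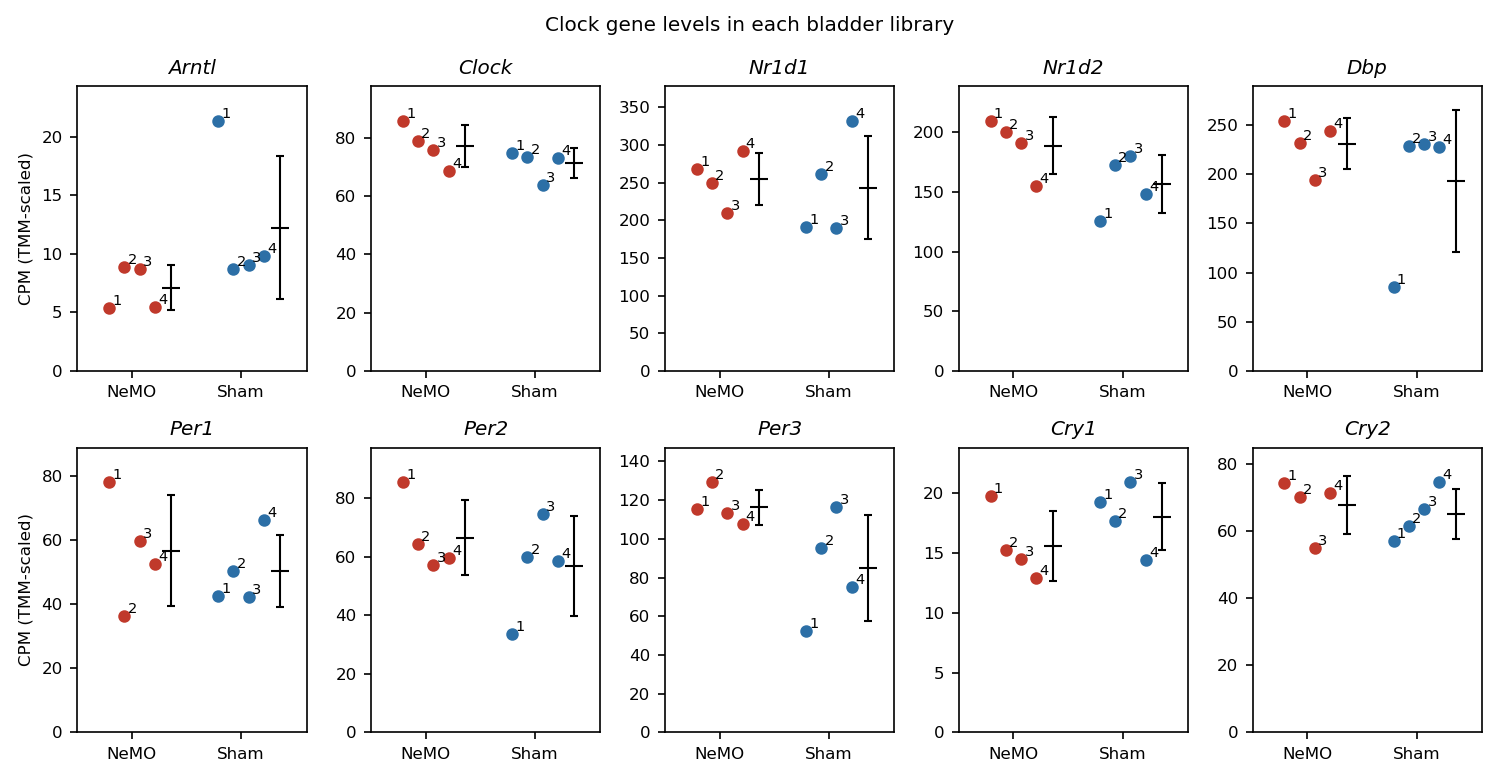
CPM after TMM scaling of each clock gene in the 4 NeMO (red) and 4 Sham (blue) libraries, numbered by replicate, with the group mean and SD as black bars and every axis starting at 0. Sham replicate 1 is the highest library for Arntl (21.4 CPM) and the lowest for Dbp (85.0), Per2 (33.5), Per3 (52.6) and Nr1d2 (126), and the groups overlap for all 10 genes.

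The period genes encode the PER proteins, which carry the delayed repression of the loop. Per1, which also responds quickly to stimuli, measured 78.1, 36.4, 59.9 and 52.7 CPM in NeMO, against 42.6, 50.5, 42.4 and 66.4 CPM in Sham. NeMO held both the highest and the lowest library, and its log2 difference was 0.18 (SE 0.25, edgeR adjusted p = 0.748). Within batch 1 this difference was 0.61 and within batch 2, with 1 Sham library, -0.57, and the gap between the batches was not tested. Per2 measured 85.3, 64.2, 57.1 and 59.6 CPM in NeMO, against 33.5, 59.8, 74.7 and 58.6 CPM in Sham. NeMO replicate 1 was the highest and Sham replicate 1 the lowest, and the other 6 libraries were mixed. Its log2 difference was 0.25 (SE 0.25, edgeR adjusted p = 0.641) and 0.08 without Sham replicate 1.

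Per3 measured 115.5, 129, 113 and 108 CPM in NeMO, against 52.6, 95.2, 116 and 74.9 CPM in Sham. The 4 NeMO libraries lay close together and above 3 of the 4 Sham libraries, and Sham replicate 3 lay among them. Per3 averaged 116 ± 9.09 CPM in NeMO and 84.8 ± 27.3 CPM in Sham, a log2 difference of 0.48 (SE 0.24, 95% interval -0.07 to 1.03, edgeR adjusted p = 0.328), and 0.33 without Sham replicate 1 (95% interval 0.01 to 0.64, edgeR adjusted p = 0.284). Within the batches it was 0.38 in batch 1 and 0.67 in batch 2. The reads of Camta1, which overlaps Per3 on the same strand, came to 10.7 to 14.6 CPM in NeMO and 11.4 to 14.7 CPM in Sham. Per1 lies on chromosome 11 (69095217 to 69109960, plus strand), Per2 on chromosome 1 (91415982 to 91459324, minus strand) and Per3 on chromosome 4 (151003652 to 151044665, minus strand).

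The cryptochrome genes, partners of PER in repression, varied less. Cry1 measured 19.7, 15.2, 14.5 and 12.9 CPM in NeMO, against 19.2, 17.7, 20.9 and 14.4 CPM in Sham. NeMO replicate 1 and Sham replicates 1 and 3 were high, NeMO replicate 4 and Sham replicate 4 were low, and the log2 difference was -0.12 (SE 0.13, edgeR adjusted p = 0.658). Cry2 measured 74.4, 70.1, 54.9 and 71.2 CPM in NeMO, against 57.2, 61.5, 66.7 and 74.5 CPM in Sham. The groups covered the same range, with a log2 difference of 0.01 (SE 0.10, 95% interval -0.22 to 0.25, edgeR adjusted p = 0.958). Cry1 lies on chromosome 10 (85131700 to 85185064, minus strand) and Cry2 on chromosome 2 (92403646 to 92434043, minus strand).

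Across the 10 clock genes, none passed an adjusted p of 0.05 between NeMO and Sham in edgeR's quasi-likelihood test, against 0.0733% of all genes tested (12 of 16370). At an unadjusted p under 0.05 there was 1 (Nr1d2), against 18.5% of all genes. DESeq2 also called 0 after adjustment, against 5.43% of the genes it adjusted (865 of 15924), and had 3 unadjusted (Arntl, Per3 and Nr1d2), against 12.8% of all genes it tested. The groups overlapped for all 10 genes, whereas 8.19% of all genes had no overlap. Of the log2 differences 7 were above 0 and 3 below, with a median of 0.15 over the clock genes and -0.01 over all genes. A p that misses the threshold does not show equal levels, and the 95% intervals still hold differences as large as -1.56 for Arntl and 1.03 for Per3. No alternative setting made any of the 10 pass.

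**Figure D2:**
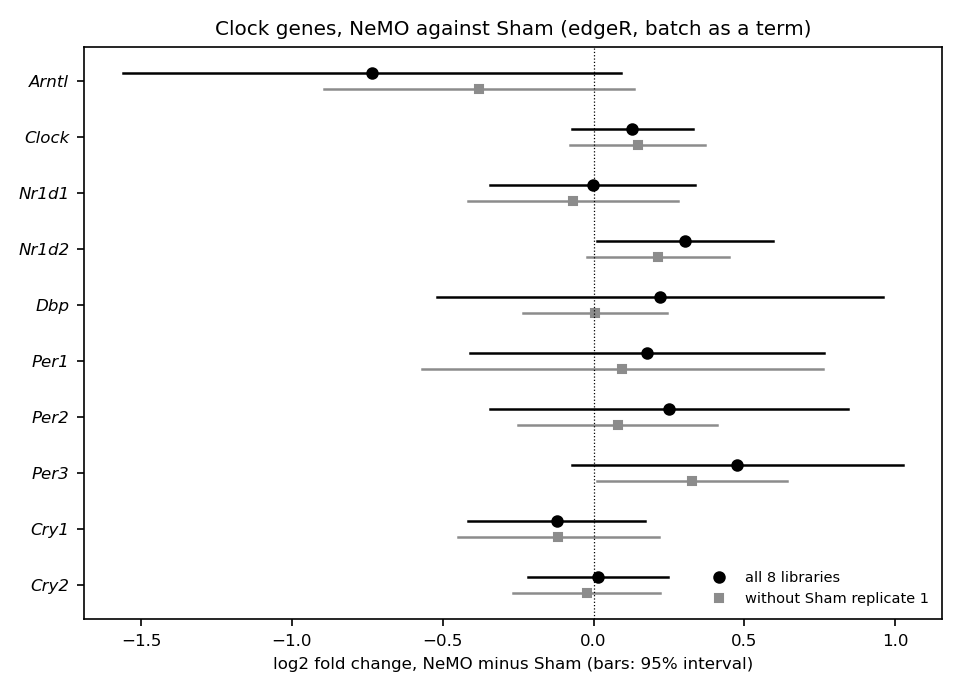
Log2 difference of each clock gene, NeMO minus Sham, from the edgeR fit with batch as a term, with all 8 libraries (black) and without Sham replicate 1 (grey), and bars for the 95% interval. Arntl moves from -0.73 to -0.38 and Dbp from 0.22 to 0.01 when that library is left out, and with all libraries the interval of Nr1d2 alone (0.01 to 0.60) lies to 1 side of 0, as without it does that of Per3 alone (0.01 to 0.64).

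Levels can be compared between genes only per length, here as CPM per kilobase of the longest annotated transcript. Dbp was the highest with 126 (105.7 to 138) in NeMO and 105.0 (46.3 to 126) in Sham, followed by Nr1d1 with 93.7 (77.2 to 107) in NeMO and 89.4 (69.5 to 122) in Sham, and these overlapped between libraries in both groups. Nr1d2 came next with 40.5 ± 5.14 in NeMO and 33.6 ± 5.28 in Sham, apart from its neighbours on both sides. Per3 (19.4 in NeMO, 14.1 in Sham), Cry2 (17.0 and 16.3), Per1 (12.2 and 10.8) and Per2 (11.4 and 9.71) formed a run in which each overlapped the next in both groups. Clock (7.93 in NeMO, 7.31 in Sham) and Cry1 (5.15 and 5.96) were lower, and Arntl was the lowest with 1.78 ± 0.49 in NeMO and 3.06 ± 1.53 in Sham. In Sham, Per2, Clock, Cry1 and Arntl also overlapped each with the next, Per2 with Clock and Cry1 with Arntl only through Sham replicate 1, and in NeMO they did not. The order was the same in both groups except that Per3 and Cry2 changed places.

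The spread between libraries of the same group was largest for Dbp and Arntl when both groups were pooled. The SD of log2 CPM within groups, pooled over both, was 0.52 for Dbp, 0.51 for Arntl, 0.39 for Per2 and Per1, 0.36 for Per3 and 0.31 for Nr1d1. It was 0.24 for Cry1, 0.21 for Nr1d2, 0.18 for Cry2 and 0.12 for Clock, against a median of 0.20 over all genes tested. Among genes within 2-fold of the same mean level, Dbp stood at the 98.6th percentile of this spread, Per2 at the 96.8th and Clock, whose transcript is known to cycle little in most mouse tissues, at the 41.6th. Within NeMO the SD was 0.17 for Dbp, 0.40 for Arntl, 0.26 for Per2, 0.11 for Per3 and 0.135 for Clock. In Sham the spread of Dbp, Arntl and Per2 rests largely on replicate 1. Without it the SD within Sham was 0.00996 for Dbp, 0.0853 for Arntl, 0.193 for Per2 and 0.117 for Clock, against 0.71, 0.61, 0.49 and 0.107 with it.

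Sham replicate 1 lay outside the range of the other 7 libraries for 5 of the 10 genes (50%), against 19.6% of all genes tested. Arntl was above that range, and Dbp, Per2, Per3 and Nr1d2 were below it. Clock, Per1, Cry1, Cry2 and Nr1d1 were within it, Nr1d1 at 190.4 CPM just over the lowest of the others (189). In the other libraries this count was 6 for NeMO replicate 1 (24% of all genes), 3 for Sham replicate 3 (19.9%), 2 for Sham replicate 4 (40.3%) and for NeMO replicate 2 (27.2%), and 1 or 0 for the rest. NeMO replicate 1 was the highest library for 5 of the 10 genes and the lowest for Arntl.

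A wider list of 12 loop genes divided in Sham replicate 1 along the same lines. Of these 12, 3 were above the other 7 libraries and 5 below (66.7% outside, against 19.6% of all genes tested). Npas2, which can stand in for Clock as the partner of Arntl, measured 19.8 CPM in Sham replicate 1 and 8.17 to 11.6 CPM in the other 7. Nfil3, which encodes the D-box repressor E4BP4, measured 9.01 CPM there and 3.84 to 7.22 CPM elsewhere, and Rorb was above the others at 1.06 CPM. Tef, a relative of Dbp, measured 175.6 CPM there and 295 to 353 CPM elsewhere.

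The E-box repressor genes Bhlhe40 and Bhlhe41 measured 25.2 and 26.7 CPM in Sham replicate 1, below their ranges of 54.4 to 171 and 48.9 to 95.8 CPM in the other 7. Ciart (listed as Gm129), a further repressor of the loop, measured 2.27 CPM there and 6.78 to 17.6 CPM elsewhere. Arntl, Npas2 and Nfil3, whose transcripts are known to peak opposite to Dbp in mouse tissues, were thus high together in this library, and Dbp, Tef, the Bhlhe genes, Ciart, Per2 and Per3 were low together. Hlf, a relative of Dbp and Tef, was not low with them, at 40.6 CPM against 18.4 to 88.5 CPM elsewhere. Nr1d1, Arntl2, Rora and Timeless were also within the range of the other libraries. NeMO replicate 1 was the highest of all libraries for Bhlhe40 (171 CPM), Bhlhe41 (95.8 CPM), Ciart (17.6 CPM) and Tef (353 CPM), while its Arntl was the lowest. Npas2 (10.1 CPM) and Nfil3 (5.76 CPM) were not low with Arntl in that library but the highest of the 4 NeMO libraries. No label gives a collection time, so these values place no library at an hour.

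**Figure D3:**
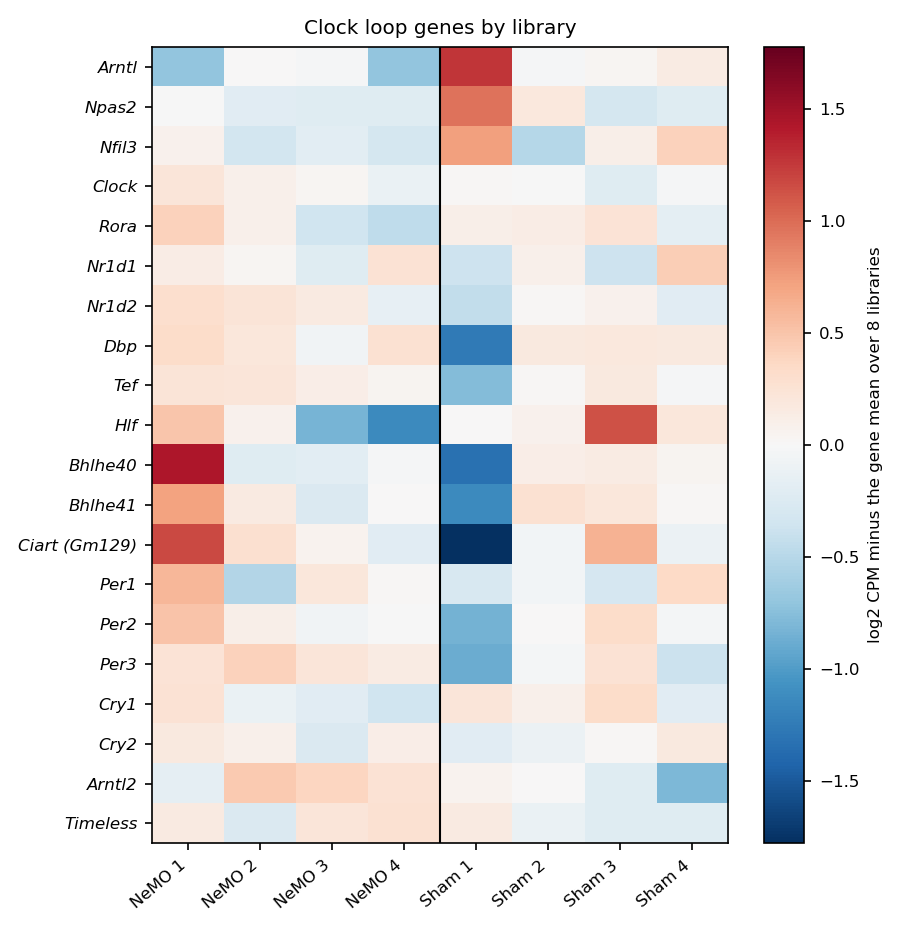
Heat map of 20 clock loop genes (rows) in the 8 libraries (columns, NeMO left of the line), coloured by log2 CPM minus the mean of the gene over all libraries, red for higher and blue for lower. In the column of Sham replicate 1, Arntl, Npas2 and Nfil3 are red and Dbp, Tef, Bhlhe40, Bhlhe41, Ciart, Per2 and Per3 are blue, and in the column of NeMO replicate 1 Arntl is blue and Bhlhe40, Bhlhe41 and Ciart are red.

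Ratios of counts between members that differ in phase set different libraries apart. The ratio of Dbp to Arntl was 46.9, 26.1, 22.3 and 44.8 in NeMO replicates 1 to 4, against 3.98, 26.2, 25.5 and 23.2 in Sham replicates 1 to 4. NeMO replicates 1 and 4 were high, Sham replicate 1 was low and the other 5 lay within 22.3 to 26.2. The ratio of Nr1d1 to Per2, an earlier against a later gene, was 3.14, 3.89, 3.68 and 4.91 in NeMO, against 5.69, 4.37, 2.53 and 5.66 in Sham. Sham held both ends of that ratio, with replicate 3 the lowest and replicates 1 and 4 the highest. NeMO replicates 1 and 4 lay inside the Sham range.

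Over the 45 pairs of clock genes, none had a correlation across the 8 libraries past an adjusted p of 0.05 (exact permutation test, two-sided, Benjamini-Hochberg). At an unadjusted p under 0.05 there were 9 by Pearson's r, 6 positive and 3 negative, and 4 by Spearman's rho. The r of Arntl was below 0 with 8 of the other 9 genes. Arntl and Dbp had r = -0.89 (exact permutation p = 0.00419, adjusted 0.0725) and rho = -0.69 (p = 0.0694). Without the libraries farthest from the median of Arntl, NeMO replicate 1 and Sham replicate 1, r was -0.43 (exact permutation p = 0.288), so the relation rests on those libraries. Per2 and Dbp had r = 0.91 (exact permutation p = 0.00484, adjusted 0.0725) and rho = 0.83 (p = 0.0154), and r was 0.35 without the same libraries. Per3 and Nr1d2 had r = 0.90 (exact permutation p = 0.00263, adjusted 0.0725) and rho = 0.86 (p = 0.0107), and r was 0.59 without Sham replicates 1 and 4 (p = 0.207).

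With group and batch means removed, 3 pairs passed the adjusted threshold, among them Arntl and Dbp with r = -0.92 (permutation test, adjusted p = 0.0268). These residuals still hold Sham replicate 1. They are also tied to each other by the removed means, so the permutation is not exact here and its p may be too small. On log2 CPM with the means left in, 0 pairs passed with all 8 libraries and 0 without Sham replicate 1. There r of Arntl and Dbp went from -0.89 to -0.62 when that library was left out. These values are not residuals, so they do not show how the 3 pairs depend on that library.

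**Figure D4:**
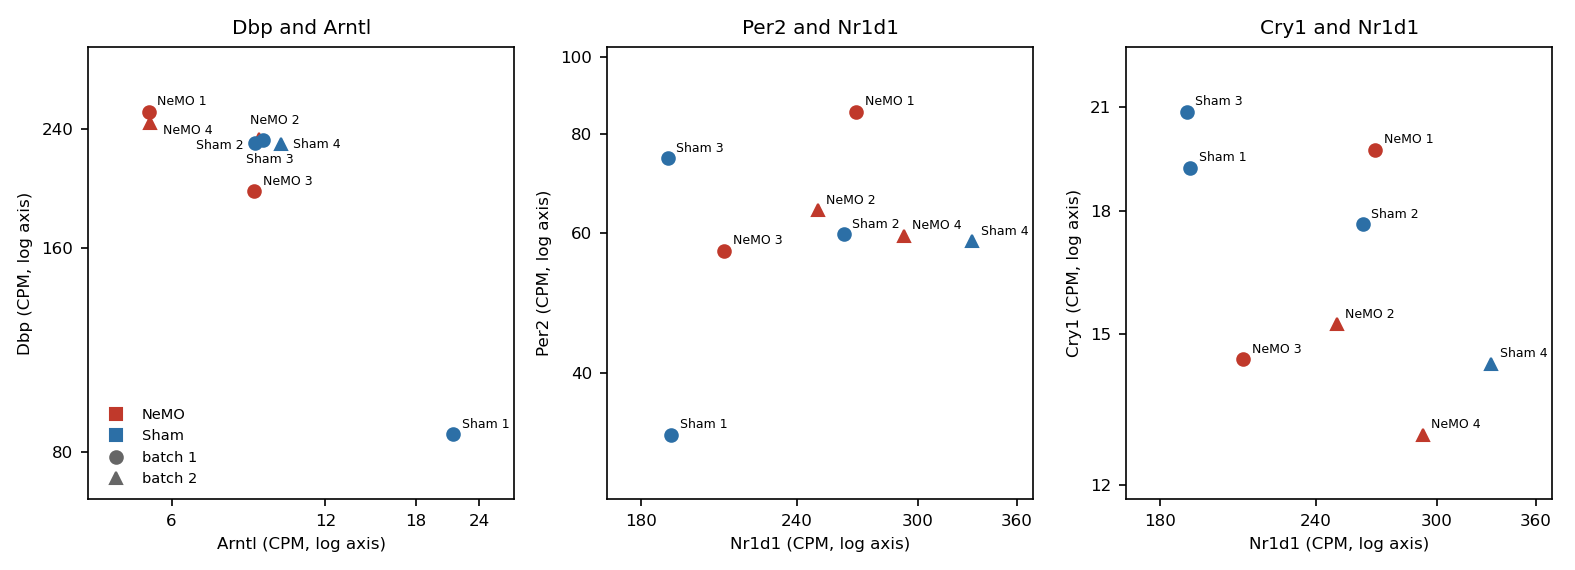
Levels of Dbp against Arntl, Per2 against Nr1d1 and Cry1 against Nr1d1 in each library (CPM, log axes), NeMO red and Sham blue, triangles for batch 2 and circles for batch 1. Sham replicate 1 lies alone at 21.4 CPM Arntl and 85.0 CPM Dbp. In the right panel the 3 libraries of batch 2 have a higher ratio of Nr1d1 to Cry1 (16.4 to 23.1) than the 5 of batch 1 (9.07 to 14.8). That pair was chosen after the values were seen.

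The batch mark is the only grouping of the libraries besides treatment that the sources give. Between batch 2 and batch 1, none of the 10 clock genes passed edgeR's adjusted p of 0.05, against 0.00611% of all genes tested (1 gene). At an unadjusted p under 0.05 there were 2, against 14.2% of all genes. DESeq2 gave 0 adjusted, against 1.63% of the genes it adjusted (290 of 17788), and 2 unadjusted, against 10% of all genes it tested. Nr1d1 averaged 291 CPM in batch 2 and 224 CPM in batch 1, a log2 difference of 0.38 (SE 0.15, edgeR adjusted p = 0.315). Cry1 averaged 14.2 CPM in batch 2 and 18.4 CPM in batch 1, a log2 difference of -0.34 (SE 0.14, edgeR adjusted p = 0.309). These 2 genes differ in phase, and their ratio, looked at after the values were seen, was 16.4, 22.6 and 23.1 in NeMO replicate 2, NeMO replicate 4 and Sham replicate 4 of batch 2. It was 13.6 and 14.5 in NeMO replicates 1 and 3 and 9.92, 14.8 and 9.07 in Sham replicates 1 to 3 of batch 1. The batches did not overlap in this ratio (lowest 16.4 in batch 2, highest 14.8 in batch 1). It was built from the 2 clock genes with the smallest p between the batches, so the split is not a test. The labels do not say what the mark stands for.

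Sham replicates 3 and 4, from different batches, differed in several members. Nr1d1 was 189 CPM in replicate 3 and 332 in replicate 4, Per3 116 and 74.9 CPM, and Cry1 20.9 and 14.4 CPM. Hlf, another relative of Dbp, was 88.5 CPM in replicate 3 and 46.3 CPM in replicate 4, while Dbp itself was 231 and 228 CPM.

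Per1 was highest in the same 2 libraries as the immediate early genes, which cells switch on within minutes of a stimulus. The sum of 13 such genes was 602, 355, 306 and 365 CPM in NeMO replicates 1 to 4, against 395, 511, 349 and 691 CPM in Sham replicates 1 to 4. The libraries with the most Per1, NeMO replicate 1 (78.1 CPM) and Sham replicate 4 (66.4 CPM), were also the highest for this sum. The other 6 did not follow that order, since NeMO replicate 3 had the next highest Per1 (59.9 CPM) and the lowest sum. For 8 of the 13 genes these were the highest libraries. Nr4a1 measured 89.7, 5.50, 6.96 and 11.2 CPM in NeMO, against 9.40, 23.3, 13.2 and 51.3 CPM in Sham. Fosb, a partner of JUN proteins, measured 43.1 CPM in NeMO replicate 1 and 35.9 CPM in Sham replicate 4, against 1.31 to 12.98 CPM in the other 6. The part of this in the level of Per1 was not tested.

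**Figure D5:**
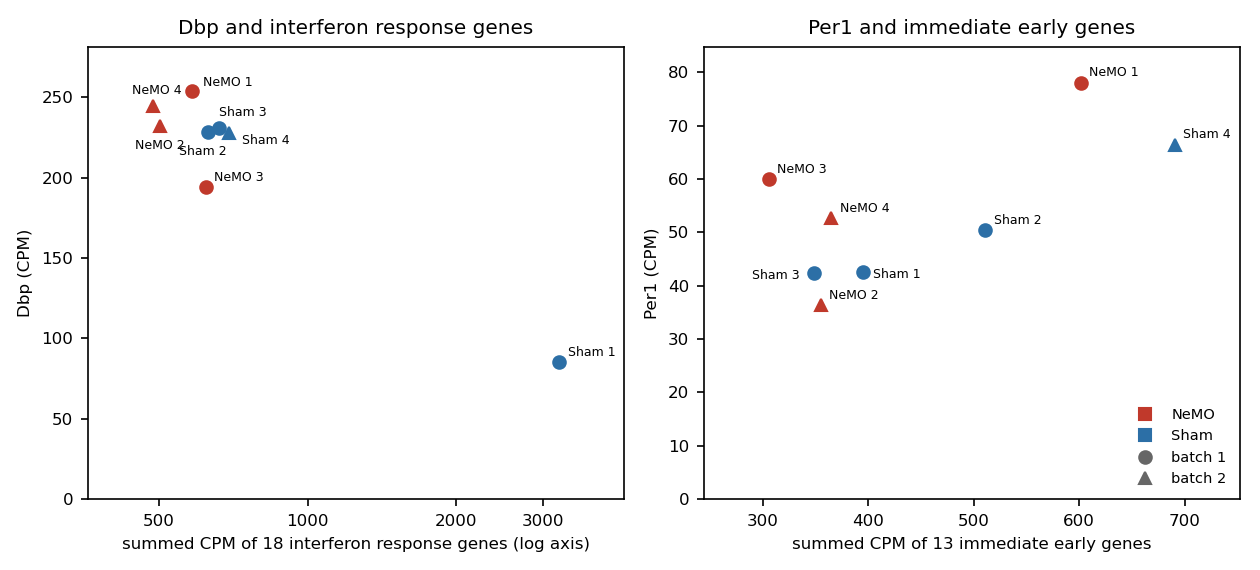
Left, Dbp (CPM) against the summed CPM of 18 interferon response genes (log axis), and right, Per1 (CPM) against the summed CPM of 13 immediate early genes, in each library, NeMO red and Sham blue, triangles for batch 2 and circles for batch 1. Sham replicate 1 lies alone at 3231 CPM on the left, and on the right NeMO replicate 1 and Sham replicate 4 have both the most Per1 and the highest sums (602 and 691 CPM).

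The wider lists around the clock gave no gene that passed edgeR's adjusted p between NeMO and Sham either. Of the 12 further loop genes, 7 had log2 differences above 0 and 5 below (median 0.14). Only 1 of the 12, the Arntl paralogue Arntl2, was past an edgeR unadjusted p of 0.05 (higher), against 18.5% of all genes tested. Arntl2 measured 18.5, 28.4, 26.9 and 24.6 CPM in NeMO, against 21.4, 20.7, 17.8 and 11.8 CPM in Sham, with overlap between the groups (log2 difference 0.51, SE 0.22, edgeR unadjusted p = 0.0422). The most abundant of the list, Tef and Bhlhe40, had differences of 0.26 (SE 0.19) and 0.61 (SE 0.50).

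Of 20 genes listed as clock regulators, 11 were above 0 and 9 below (median 0.07). An edgeR unadjusted p under 0.05 was found for 3, all of them higher (Gsk3b, Usp7 and Huwe1), which at 15% is below the 18.5% of all genes. The most abundant were the phosphatase subunit gene Ppp1cb at -0.14 (SE 0.16) and the casein kinase gene Csnk1a1 at 0.08 (SE 0.08). Csnk1d and Csnk1e, the kinases of PER proteins, stood at 0.05 (SE 0.08) and 0.12 (SE 0.08). In Sham replicate 1, 3 of these 20 genes (15%, against 19.6% of all genes) lay outside the other 7 libraries, among them Nampt, an E-box target of the NAD pathway, at 163 CPM against 98.5 to 134 CPM.

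Of 16 output genes known to cycle in mouse tissues, 6 were above 0 and 10 below (median -0.12), and none passed at an unadjusted p either. The most abundant were Hspa5 at -0.37 (SE 0.18) and Tsku at -0.13 (SE 0.11). In Sham replicate 1, 6 of the 16 (37.5%, against 19.6% of all genes) lay outside the other 7 libraries, 2 above and 4 below. One of those below was Wee1, a cell cycle kinase gene with E-boxes known from mouse liver, at 9.01 CPM against 11.5 to 18.2 CPM. The 2 above were Pdk4, at 101 CPM against 43.4 to 81.3 CPM, and Lgals3bp, at 254.5 CPM against 116 to 178 CPM. Of 13 glucocorticoid response genes, which can move Per1 and other clock genes in mice, 3 were above 0 and 10 below (median -0.20), with 1 lower at an unadjusted p under 0.05. Of the 13 immediate early genes 4 were above 0 and 9 below (median -0.21), with 1 lower at an unadjusted p under 0.05 (Fos, log2 difference -1.13, SE 0.34). In each of these lists 1 of 13 stands against 18.5% of all genes tested. The most abundant of the 2 lists were Cdkn1a at 0.19 (SE 0.11) and Klf9 at 0.14 (SE 0.15), and Btg2 at -0.20 (SE 0.12) and Junb at -0.24 (SE 0.17).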

How the data were processed

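Whole-number read counts per gene symbol were deposited by the authors, 1 file per library, for 4 NeMO and 4 Sham libraries of mouse bladder polyA RNA. Per the submitters' processing notes, the mm10 build, Trimmomatic, STAR, featureCounts and DESeq2 were used. Not given in the sources used here are versions, the counting annotation, the strand setting and how multi-mapping reads were handled. The test was edgeR 4.0.16 under R 4.3.3 (filterByExpr defaults, minimum count 10 and minimum total count 15, TMM, robust quasi-likelihood F-test, terms for group and batch, two-sided, Benjamini-Hochberg over 16370 genes, threshold 0.05), and with DESeq2 1.42.0 as an alternative. The biological coefficient of variation was 0.186. Correlations used log2 CPM (prior count 2). The length and GC correction fitted splines with 4 degrees of freedom per library. Positions and lengths come from GENCODE release M21 on GRCm38, and promoters from RefSeq. The fit was tested on simulated data. Members and lists were chosen with earlier results of these data known. The named genes are the 10 members, of each list the genes past the threshold or else the 2 most abundant, and the 5 genes with the highest and the 5 with the lowest r to Arntl and to Dbp. Other genes were singled out after their values were seen, and some list genes are not reported here. Every pair of libraries of a group differed by more than sampling noise (chi-square per degree of freedom 20.8 to 113).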

Additional observations from a re-analysis of the deposited data

Results flagged for a closer look

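In 20 groups of 4 values (10 clock genes in NeMO and in Sham), 3 held a library whose gap to its nearest neighbour took up more of the group's range than Dixon's critical value allows, where chance alone gives about 1 group in 20. Arntl in Sham replicate 1 was 21.35 CPM, the highest of the Sham libraries, with a gap of 0.915 of the range. Dbp in the same library was 85.0 CPM, the lowest, with a gap of 0.979. Clock in Sham replicate 3 was 63.64 CPM, the lowest of the Sham libraries, with a gap of 0.857, although the whole Sham range of Clock runs only up to 74.7 CPM.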

How the results depend on the processing

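In refits of single clock genes between NeMO and Sham, 160 values kept the direction and the side of the threshold, and 20 changed direction without passing it. No clock gene passed under any alternative. The difference of Nr1d1, -0.003, was 0.00292 with no filter, 0.00222 with size factors, 0.00472 with library totals, 0.00459 with DESeq2, 0.0681 without the batch term, 0.16 in batch 1 alone and 0.0913 with the length and GC correction, which put Clock at -0.0503. In batch 2 alone, whose single Sham library is taken to vary as the NeMO libraries do, Per1 was -0.57 and Cry2 -0.0678. Leaving out 1 library gave -0.0421 to 0.61 for Per1, -0.12 to 0.11 for Cry2, -0.14 to 0.16 for Nr1d1 and -0.23 to 0.00602 for Cry1. Between the batches, Per3 was 0.0769 without the group term, and Clock 0.16 and Nr1d2 0.0301 with the length and GC correction. Leaving out 1 library gave -0.13 to 0.0129 for Clock, -0.63 to 0.14 for Per1, -0.20 to 0.0867 for Per2, -0.16 to 0.0529 for Per3 and -0.39 to 0.0672 for Arntl. Over all genes, 12 passed in edgeR, 172 with no filter, 865 with DESeq2, 7 without the batch term, 0 in batch 1 alone (1756 at an unadjusted p under 0.05), 7 in batch 2 alone, and 0 to 652 when 1 library was left out (0 without NeMO replicate 4 and without Sham replicate 4, 652 without NeMO replicate 1). Pairs of clock genes past the threshold were 3 after batch and group means were removed and 0 to 3 when 1 library was left out (3 without NeMO replicate 4, when Arntl and Nr1d2 had r = -0.89 and adjusted p = 0.0387). The cause of these changes was not tested.

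The labels state no pairing of NeMO and Sham libraries with the same replicate number. The correlation of their deviations was -0.00958, 0.082, 0.0438 and 0.324 for numbers 1 to 4, against -0.249 to 0.255 for unlike numbers. Numbers 1, 3 and 4 also share a batch in both groups. Such correlations cannot show or exclude a pairing. With a replicate block in place of the batch term 0 genes passed (2648 at an unadjusted p under 0.05) and Nr1d1 was 0.0976, and with a replicate block and the batch term 2 passed and Nr1d1 was 0.15. Per library the clock genes held 189 counts (Arntl in NeMO replicate 1) to 10561 counts (Nr1d1 in NeMO replicate 4), which sets the counting error of each value.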

Other observations

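Apart from the 10 clock genes themselves, the genes whose log2 CPM followed Dbp most closely over the 8 libraries, among 13184 genes, were the loop genes Tef (r = 0.95) and Bhlhe41 (0.92), the orphan nuclear receptor gene Nr6a1 (0.93), the phosphatase gene Dusp4 (0.93) and Cyb5d1 (0.92). Those that ran most opposite were Stat2 (-0.99), the guanylate binding protein gene Gbp6 (-0.99), the peptide transporter gene Tap1 (-0.99), the immunoproteasome gene Psmb9 (-0.99) and Irgm1 (-0.98), all of the interferon response. Stat2 measured 59.2, 58.1, 69.9 and 59.4 CPM in NeMO, against 195.9, 61.4, 67.8 and 65.3 CPM in Sham. Without Sham replicate 1 the r with Dbp was -0.76 for Stat2, 0.22 for Tef and 0.78 for Bhlhe41. The libraries share this 1 outlying sample, so these values describe the 8 libraries only.

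The genes most like Arntl were Ly6c2 (r = 0.96), the granzyme gene Gzma (0.95), the interferon response gene Isg15 (0.95), Slfn1 (0.95) and Gbp10 (0.94). Without Sham replicate 1 their r was 0.79 to 0.85. Some were near the floor outside that library. Ly6c2 measured 5.89 CPM in it and 0.315 to 1.02 CPM elsewhere, and Gbp10 13.25 CPM against 0.083 to 0.539 CPM. The most opposite were the potassium channel gene Kcnn3 (-0.95), Pthlh, which encodes a relative of parathyroid hormone (-0.94), the integrin gene Itga1 (-0.94), Socs5 (-0.92) and Nyap1 (-0.90). Kcnn3 measured 4.64, 2.62, 3.53 and 3.85 CPM in NeMO, against 1.68, 3.12, 3.02 and 3.04 CPM in Sham, with r = -0.85 without Sham replicate 1.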
